A study of Mus musculus with 9 samples.

Results

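Aminoacyl-tRNA synthetases were followed here in cultured aortic valves of newborn mice. The genes were taken from a list of 36 named cytosolic and mitochondrial synthetases, and a probe set was counted when its single listed symbol was one of those names, with or without a final 1. This gave 35 probe sets for 34 genes, of which 18 code for cytosolic enzymes and 16, whose symbols end in 2, for mitochondrial ones, out of 23397 probe sets tested and 19934 genes with a probe set of their own. The 2 names not reached were Dars, which was not analysed here, and Aars, whose probe set also lists Exosc6.

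The explants were aortic valves of C57BL/6J pups at postnatal day 1, with the valves of 5 to 6 pups pooled for each array and kept on floating filters for 48 hours. The 3 treatments had 3 pools and 3 arrays each: all-trans retinoic acid (ATRA) at 1 µmol/L, LE540, an antagonist of retinoic acid receptors whose dose and vehicle are not given in the sources used here, and DMSO at 0.001%, the vehicle of ATRA. All media held fetal bovine serum and added glutamine. The pools are labelled as biological replicates, and the labels give neither the sex of the pups nor the purity of the dissection.

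A synthetase joins an amino acid to its matching tRNA, the step that supplies charged tRNA to the ribosome. Mammalian cells hold a cytosolic set and a separate, nuclear-encoded mitochondrial set, which does not cover every amino acid. Among the exceptions, glycyl- and lysyl-tRNA synthetase (Gars and Kars) serve both compartments from a single gene. Uncharged tRNA activates the kinase Gcn2, encoded by Eif2ak4, which leads to translation of the transcription factor Atf4, and many cytosolic synthetase genes are known targets of Atf4.

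The arrays had similar overall intensity, with medians of 123.61 to 128.13 on the linear scale. LE540 replicate 1 stood apart from the others on the first principal component (63.7, against -21.5 to 13.9 for the other arrays). Values without it are given beside some of the results below, and other results may rest on it too. Markers of valve mesenchyme were bright, Postn averaging 3087.7 and Dcn 5118.5 over the 9 arrays. Cardiomyocyte markers were present too, Tnnt2 averaging 7711.2, as were those of endothelium and macrophages. Of the melanocyte list, Tyr lay below the lower quartile on 8 arrays. Dct averaged 290.4, Mlana 177.2, Mitf 168.7, Pmel 150.0 and Tyrp1 79.6, each with 0 arrays below that quartile. In LE540 against DMSO arrays, 9 of 10 mesenchyme markers were lower (median log2 change -0.20) with summed intensities of 10204 to 17713 in LE540 and 13812 to 19189 in DMSO arrays. Endothelial sums ran from 1333 to 3038 in LE540 and from 1292 to 2968 in DMSO arrays, cardiomyocyte sums from 11209 to 20334 in LE540 and from 12021 to 24820 in DMSO arrays, and macrophage sums from 2369 to 3424 in LE540 and from 1876 to 4116 in DMSO arrays. Macrophage markers were lower in 7 of 9 (median -0.21), while endothelial and cardiomyocyte markers were divided (medians 0.09 and -0.05). The part of cell composition in the synthetase results was not tested, and in such bulk RNA fewer cells of a type and less RNA per cell cannot be told apart.

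Cytosolic synthetase transcripts were higher in LE540 than in DMSO explants, while mitochondrial ones were not shifted as a group. Of the 18 cytosolic genes, 16 had a higher mean log2 level with LE540, with a median log2 change of 0.59, against 0.02 over all 19934 genes. Of the 16 mitochondrial genes, 7 were higher and 9 lower, with a median of -0.01. The groups also differed in brightness. In DMSO arrays the cytosolic genes had a median intensity of 744 (191 to 3314) and the mitochondrial genes of 189 (87.4 to 576). The part of signal level in the contrast between the groups was not tested. The comparison asks what differed in valves treated with LE540. Since its dose and vehicle are not given, receptor blockade and other effects of the treatment cannot be told apart. Calls were made in limma where the p-value after Benjamini-Hochberg adjustment was under 0.1, the false discovery rate of the series' design, which also asked for a 2-fold change. None of the 34 synthetases was called (0, against 0.0299% of all probe sets). At an unadjusted p under 0.05, 11 of the 18 cytosolic genes were higher and 0 lower, against 4.47% and 4.33% of all probe sets, and 0 of the 16 mitochondrial genes reached that level in either direction. In 11 of the 18 cytosolic genes all LE540 arrays lay above all DMSO arrays, as 6.74% of all probe sets did, and in 0 of the 16 mitochondrial genes did the arrays separate in either direction (5.86% of all probe sets separated downward). Without LE540 replicate 1 the cytosolic median was 0.57, the mitochondrial median 0.09, and 9 cytosolic genes were higher at the unadjusted level.

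**Figure D1:**
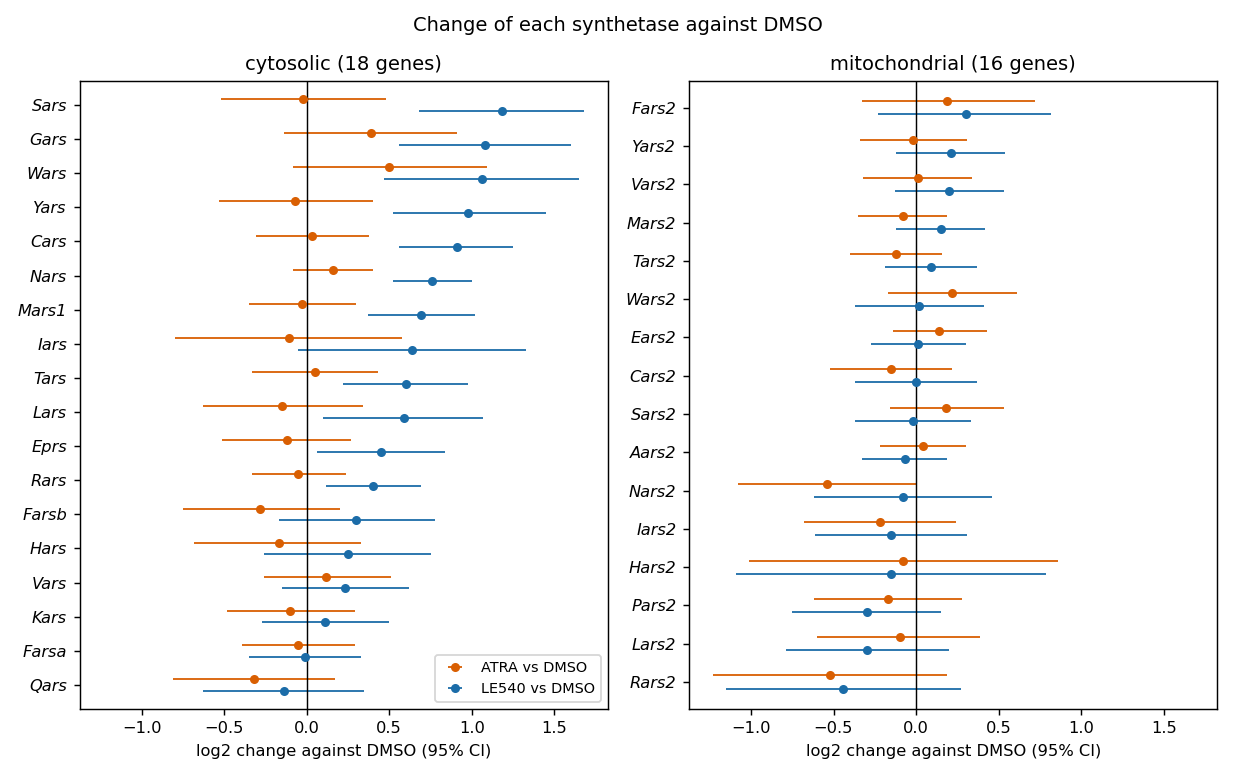
Log2 change of each synthetase against DMSO (x axis) with its 95% confidence interval from limma, cytosolic genes on the left and mitochondrial genes on the right, for ATRA (orange) and LE540 (blue), which share the DMSO arrays. Cytosolic LE540 changes run from -0.14 for Qars to 1.18 for Sars, and mitochondrial ones from -0.44 for Rars2 to 0.30 for Fars2.

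Sars, the seryl-tRNA synthetase, differed most. It measured 3572, 2742 and 3162 intensity units in the 3 LE540 arrays, against 1291, 1432 and 1449 in DMSO arrays. Every LE540 array lay above every DMSO array. The log2 change was 1.18 (SE 0.22, 95% confidence interval 0.68 to 1.68), a 2.26-fold higher level, which did not pass in limma (adjusted p = 0.235).

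Gars, which charges glycine in both compartments, measured 2920, 2021 and 2581 in LE540 arrays, against 1033, 1671 and 932 in DMSO arrays. DMSO replicate 2 was the highest of its group and still below the lowest LE540 array. The log2 change was 1.08 (SE 0.23, interval 0.56 to 1.60; limma adjusted p = 0.328).

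Wars, the tryptophanyl enzyme and also a gene known to be induced by interferon gamma, measured 777, 380 and 564 in LE540 arrays, against 227, 319 and 255 in DMSO arrays. The groups did not overlap, but the LE540 arrays were widely spread. Its log2 change of 1.06 (SE 0.26, interval 0.47 to 1.65) did not pass in limma (adjusted p = 0.387). With 1 array left out the change ran from 0.81 to 1.32.

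Yars, the tyrosyl enzyme, measured 621, 844 and 753 in LE540 arrays, against 355, 439 and 328 in DMSO arrays, again without overlap. The log2 change was 0.98 (SE 0.20, interval 0.52 to 1.45; limma adjusted p = 0.323).

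Cars, the cysteinyl enzyme, was the most even of these genes within LE540 explants. It measured 583, 540 and 597 in LE540 arrays, against 278, 365 and 280 in DMSO arrays. The log2 change was 0.91 (SE 0.15, interval 0.56 to 1.25; limma adjusted p = 0.206).

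Nars, the asparaginyl enzyme, came closest to the threshold. It measured 3905, 3334 and 4100 in LE540 arrays, against 2120, 2336 and 2206 in DMSO arrays. The groups were far apart relative to the spread in DMSO arrays, and the log2 change of 0.76 (SE 0.11, interval 0.52 to 1.00) had an adjusted p of 0.122 in limma.

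Nars passed when LE540 replicate 2 (adjusted p = 0.0424) or LE540 replicate 3 (0.0747) was left out, Wars passed without LE540 replicate 2 (0.094), and Sars passed without ATRA replicate 1 (0.0951), an array that enters only the shared estimate of spread. With DMSO replicate 1, DMSO replicate 3 or LE540 replicate 3 left out, 9 cytosolic genes were higher at the unadjusted level.

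Mars1, the methionyl enzyme and a part of the multisynthetase complex, measured 660, 534 and 504 in LE540 arrays, against 355, 368 and 320 in DMSO arrays. LE540 replicate 1 was the highest and the groups did not overlap (log2 change 0.69, SE 0.14, interval 0.37 to 1.02; limma adjusted p = 0.323).

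Iars, the isoleucyl enzyme of the same complex, has a pair of probe sets. The brighter one measured 1161, 1209 and 2023 in LE540 arrays, against 808, 1189 and 784 in DMSO arrays, so LE540 replicate 1 lay below DMSO replicate 2. Its log2 change was 0.64 (SE 0.30, interval -0.05 to 1.33; limma adjusted p = 0.584), and it was 0.38 without LE540 replicate 3, the highest array. The other probe set measured 895, 811 and 1335 in LE540 arrays, against 484, 639 and 412 in DMSO arrays, without overlap, and its log2 change was 0.98 (SE 0.21, limma adjusted p = 0.35).

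**Figure D2:**
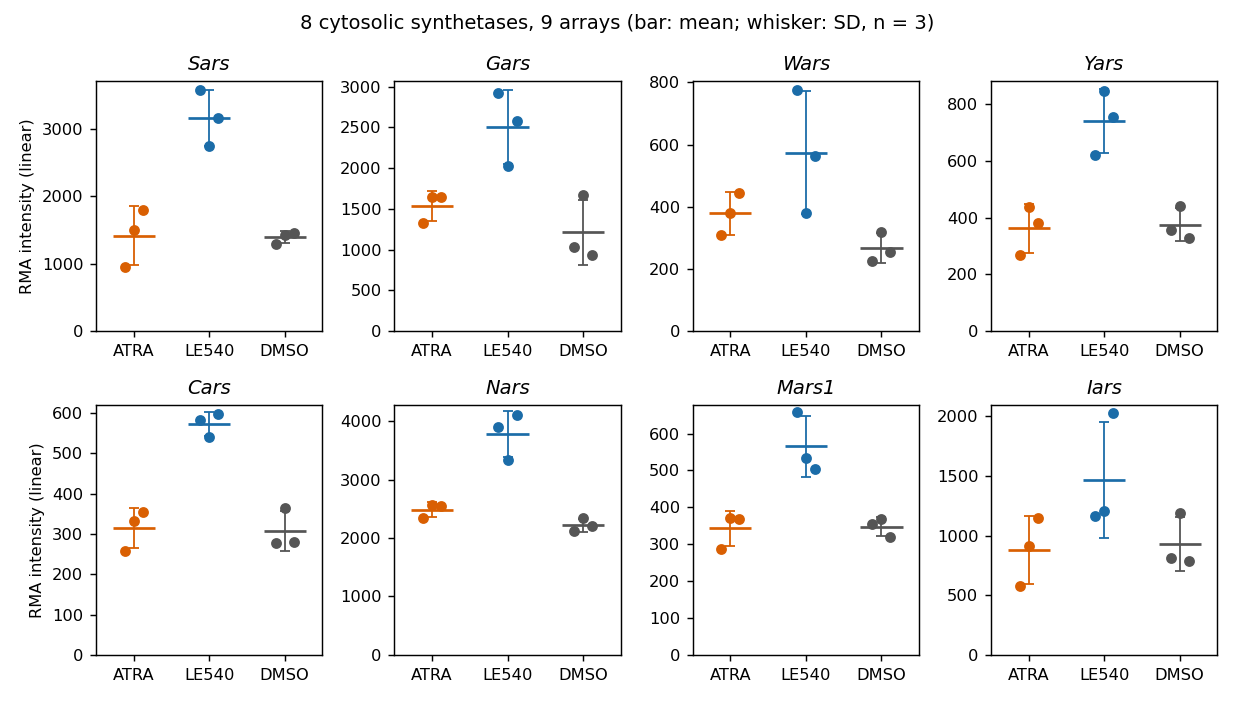
RMA intensity on a linear scale (y axis, from 0) of the 8 cytosolic synthetases with the largest LE540 change, in ATRA, LE540 and DMSO explants; points are arrays, horizontal bars means and whiskers SD (n = 3). LE540 arrays of Sars lie between 2742 and 3572 and DMSO arrays between 1291 and 1449, while the ATRA arrays, from 944 to 1802, span the DMSO values.

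A further 4 cytosolic genes separated LE540 from DMSO arrays with smaller differences. Tars, for threonine, Lars, for leucine and also known as a leucine sensor of the mTORC1 pathway, Eprs, a bifunctional enzyme for glutamate and proline, and Rars, for arginine, had log2 changes of 0.60, 0.59, 0.45 and 0.40. Rars measured 4399, 4183 and 4571 in LE540 arrays, against 3202, 3519 and 3221 in DMSO arrays. Eprs measured 2407, 1846 and 2885 in LE540 arrays, against 1686, 1764 and 1688 in DMSO arrays. The LE540 arrays of Eprs were thus more scattered than its DMSO arrays, which lay close together.

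The remaining 6 cytosolic genes overlapped between LE540 and DMSO arrays. Farsb and Farsa, the beta and alpha subunits of the phenylalanyl enzyme, were at 0.30 (interval -0.17 to 0.78) and -0.01 (-0.35 to 0.33). Hars, for histidine, was at 0.25 (-0.26 to 0.75), Vars, for valine, at 0.23 (-0.15 to 0.62), and Kars, for lysine in both compartments, at 0.11 (-0.27 to 0.50). Qars, for glutamine, was the lowest at -0.14 (-0.63 to 0.35). These intervals include 0 and also changes as large as that of Rars, apart from that of Farsa and of Qars, whose upper limits lie below 0.40.

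The cytosolic genes were also set out by what is known of their control. Of the 12 measured synthetases known as Atf4 targets (Cars, Eprs, Gars, Iars, Lars, Mars1, Nars, Sars, Tars, Vars, Wars and Yars), 12 were higher with LE540, with a median log2 change of 0.73. At an unadjusted p under 0.05, 10 were higher, as were 4.47% of all probe sets. Of the 6 others (Farsa, Farsb, Hars, Kars, Qars and Rars), 4 were higher, with a median of 0.18, and 1, Rars, reached that level. The groups rest on background knowledge and were set with earlier results of these arrays known, so the split is a description. By catalytic class, the 9 class I enzymes had a median of 0.64 and the 8 class II enzymes of 0.45. The 7 measured synthetases of the multisynthetase complex had a median of 0.45, with 4 higher at the unadjusted level.

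The RefSeq promoter table (GRCm38.p6) holds a window of 250 bases before to 50 bases after the transcription start for 25 of the 34 synthetase genes. The windows were searched on both strands for TGATGNAA, a core form of the C/EBP-ATF response element that Atf4 dimers are known to bind, and no other motif was searched. Of the 11 cytosolic genes with a window, 4 held a match (36.4%), as did 0 of 14 mitochondrial genes and 1219 of all 27025 genes with a window (4.51%). The 4 genes, Gars, Iars, Tars and Yars, had LE540 changes of 1.08, 0.64, 0.60 and 0.98. No match was found in the windows of Sars, Mars1, Eprs, Farsa, Farsb, Kars or Qars, which says only that these letters are absent from those windows. Cars, Hars, Lars, Nars, Rars, Vars, Wars, Hars2 and Pars2 had no window.

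The part of each matching window from 120 bases before to 30 bases after the start is shown, since these are the synthetases with both a higher LE540 level and the element near the start; capitals mark the match. The stretches are chr6:55037881-55038030 on the plus strand for Gars, chr13:49682010-49682159 on the plus strand for Iars, chr15:11399629-11399778 on the minus strand for Tars and chr4:129189783-129189932 on the plus strand for Yars. Each is written 5′ to 3′ in the direction of transcription.
Gars: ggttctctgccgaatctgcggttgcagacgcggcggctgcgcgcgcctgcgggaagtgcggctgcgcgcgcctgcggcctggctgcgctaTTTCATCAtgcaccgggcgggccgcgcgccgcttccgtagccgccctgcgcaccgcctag
Iars: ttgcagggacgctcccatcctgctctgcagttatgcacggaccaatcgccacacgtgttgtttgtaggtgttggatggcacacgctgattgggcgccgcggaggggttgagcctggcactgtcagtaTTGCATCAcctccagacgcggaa
Tars: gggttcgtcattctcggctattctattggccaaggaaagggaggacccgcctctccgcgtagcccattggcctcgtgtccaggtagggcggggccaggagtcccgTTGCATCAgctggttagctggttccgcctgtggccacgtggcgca
Yars: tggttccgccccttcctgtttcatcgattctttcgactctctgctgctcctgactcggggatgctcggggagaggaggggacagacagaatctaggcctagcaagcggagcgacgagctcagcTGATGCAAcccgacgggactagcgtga
The match begins at position -30 in Gars, -15 in Tars, 8 in Iars and 4 in Yars, counted from the start at 1 with no position 0. In Gars, Iars and Tars the element lies on the strand opposite to the gene, and in Yars on the same strand.

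Mitochondrial synthetases overlapped between LE540 and DMSO arrays in 16 of 16 genes. Rars2, for arginine, had the largest difference, measuring 252, 524 and 568 in LE540 arrays, against 494, 604 and 628 in DMSO arrays. LE540 replicate 1, the array that stood apart, was the low one, and the log2 change of -0.44 (SE 0.31, interval -1.15 to 0.27; limma adjusted p = 0.682) was -0.07 without it.

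Pars2, for proline, measured 51.7, 86.6 and 79.6 in LE540 arrays, against 81.5, 91.9 and 88.9 in DMSO arrays. Only its LE540 replicate 1 fell below the lower quartile of its array, the single such value among all synthetases, and its log2 change was -0.30 (SE 0.20, limma adjusted p = 0.666; -0.07 without that array). Lars2, for leucine, measured 86.3, 117 and 125 in LE540 arrays, against 112, 171 and 121 in DMSO arrays (log2 change -0.30, SE 0.22, limma adjusted p = 0.692; -0.14 without LE540 replicate 1 and -0.11 without DMSO replicate 2).

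Fars2, for phenylalanine, measured 274, 359 and 277 in LE540 arrays, against 171, 306 and 281 in DMSO arrays. DMSO replicate 1 was the low array, and the log2 change of 0.30 (SE 0.23, limma adjusted p = 0.707) was 0.04 without it, 0.46 without DMSO replicate 2 and 0.17 without LE540 replicate 2. With array weights the changes of Rars2, Pars2 and Lars2 were -0.24, -0.16 and -0.16. The other 12 mitochondrial genes lay between -0.15 (Hars2 and Iars2) and 0.21 (Yars2). Hars2 had the widest interval, -1.09 to 0.79, since it measured 116, 339 and 432 in LE540 arrays, against 339, 258 and 265 in DMSO arrays.

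For 13 amino acids a mitochondrial enzyme was measured beside a cytosolic one that serves that amino acid alone, taking Farsa as the cytosolic phenylalanyl one. Eprs, which serves both glutamate and proline, was left out of these pairs; it was at 0.45 with LE540, against 0.01 for Ears2 and -0.30 for Pars2. The cytosolic change with LE540 was above the mitochondrial one in 12 of 13 pairs, with a median difference of 0.78 log2. Mitochondrial genes were dimmer as a group, and the part of signal level in these differences was not tested. The gap was widest for serine (Sars 1.18, Sars2 -0.02) and tryptophan (Wars 1.06, Wars2 0.02). For valine the enzymes changed alike in size (Vars 0.23, Vars2 0.20), and for phenylalanine the order was turned (Farsa -0.01, Fars2 0.30). The turned order rests on the choice of Farsa, since the other cytosolic subunit, Farsb, was at 0.30 as well.

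**Figure D3:**
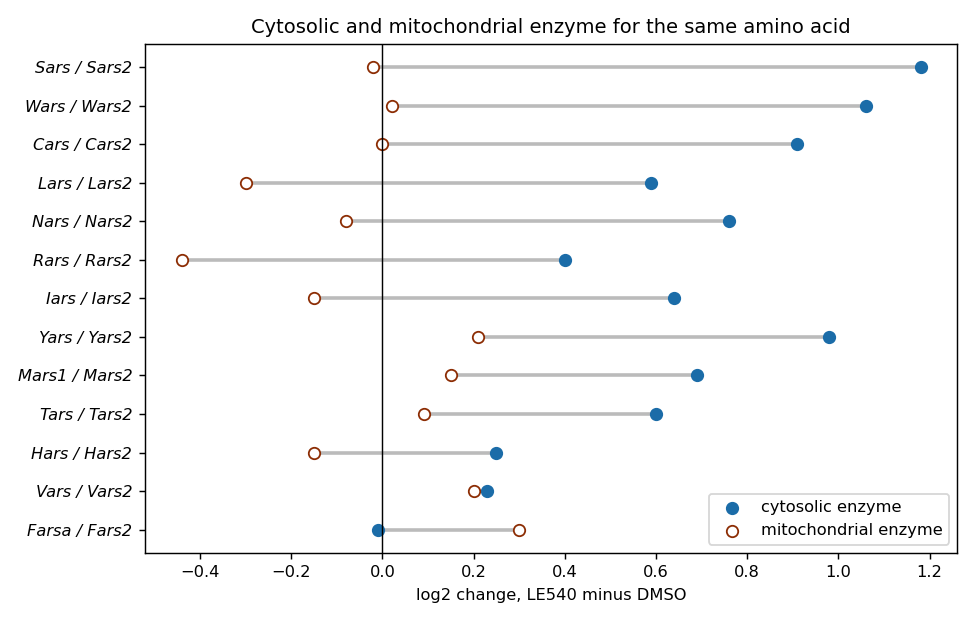
Log2 change with LE540 against DMSO (x axis) of the cytosolic enzyme (filled) and the mitochondrial enzyme (open) for each of 13 amino acids, ordered by their difference. The cytosolic point lies to the right in 12 pairs, by up to 1.20 for Sars and Sars2, and to the left for Farsa and Fars2, by 0.30.

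Other genes of tRNA charging and translation were set beside the synthetases. The multisynthetase complex scaffold genes Eef1e1, Aimp1 and Aimp2 were at 0.65, 0.38 and 0.31 with LE540, and 0 of 3 passed in limma (adjusted p = 0.549 to 0.708). Among tRNA maturation, export and modification genes 11 of 14 were higher (median 0.16), 0 passed and 3 were higher at the unadjusted level (4.47% of all probe sets). In that list Xpot, the tRNA exportin, was at 0.83 (SE 0.32, limma adjusted p = 0.541) and Trmt1, a tRNA methyltransferase, at 0.48 (SE 0.22, limma adjusted p = 0.573). Cytosolic elongation factors had 4 of 5 members higher (median 0.11, 0 passed), with Eif5a at 0.62 and Eef1b2 at 0.25. Mitochondrial charging and translation genes were divided, 6 higher and 5 lower (median 0.02, 0 passed). At the unadjusted level 2 were lower, as were 4.33% of all probe sets. Gfm2 was at -0.46 and the ribosome recycling factor Mrrf at 0.42.

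The amino acid stress genes, which hold other known Atf4 targets, had a larger median change than the synthetases. With LE540, 22 of 23 were higher (median 1.16), as were 54.0% of all genes. In the list 3 rose, where 0.0299% of all probe sets passed. They were Ddit3 and Mthfd2, by 1.78 log2 each (limma adjusted p = 0.0917 each), and Slc6a9, by 1.56 (0.0955). With the replicate number as a block these calls were lost, at limma adjusted p-values of 0.134 for Ddit3, 0.114 for Mthfd2 and 0.164 for Slc6a9. Atf4 itself was at 1.12 (SE 0.26, limma adjusted p = 0.37), Asns, the asparagine synthetase, at 2.12 (SE 0.30, limma adjusted p = 0.122), and the exception was Eif2ak4 at -0.37. In ATRA against LE540 explants 10 of the 23 stress genes passed as lower, where 0.192% of all probe sets did. Ddit3, Mthfd2 and Slc6a9 were among them. With the block they kept these calls, at limma adjusted p-values of 0.0251, 0.0162 and 0.0581. Across arrays the known Atf4 targets among the synthetases, each centred on its own mean over the 9 arrays, averaged -0.52, -0.09 and -0.03 log2 in ATRA arrays, 0.55, 0.32 and 0.59 in LE540 arrays and -0.35, -0.08 and -0.40 in DMSO arrays. The stress genes averaged -0.65, -0.25 and -0.35 in ATRA arrays, 1.06, 0.50 and 0.83 in LE540 arrays and -0.48, -0.17 and -0.50 in DMSO arrays. LE540 replicate 2 was the lowest LE540 array and DMSO replicate 2 the highest DMSO array in both groups of genes.

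**Figure D4:**
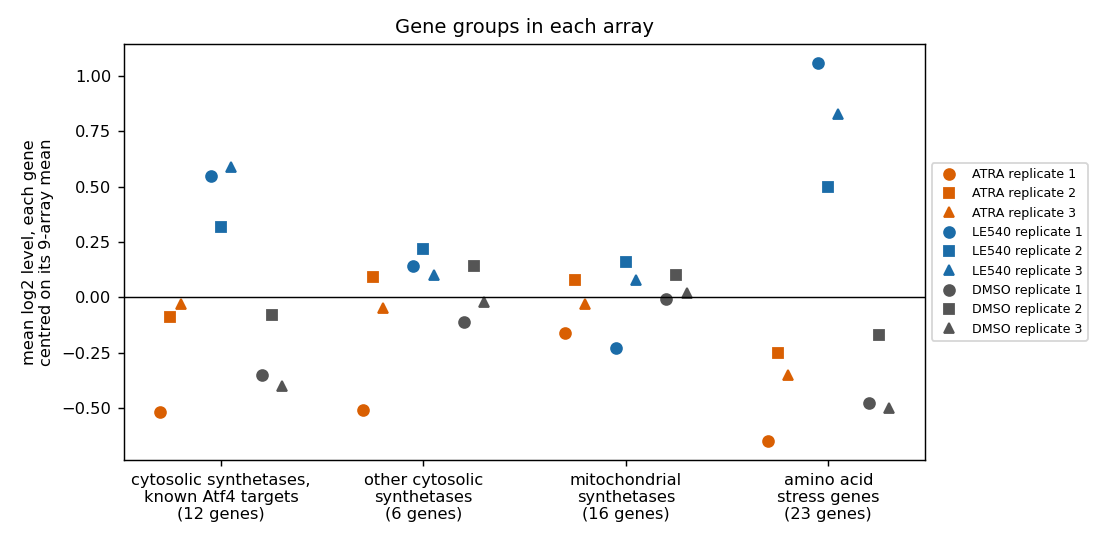
Mean log2 level of 4 gene groups in each array (y axis, each gene centred on its mean over 9 arrays), with colours for the treatment and symbols for the replicate. LE540 arrays stand above all others for known Atf4 targets among cytosolic synthetases (0.32 to 0.59) and for amino acid stress genes (0.50 to 1.06), whereas for mitochondrial synthetases they run from -0.23 to 0.16, across the DMSO range of -0.01 to 0.10.

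The next comparison asks what added retinoic acid changed. In ATRA against DMSO explants 12 of 34 genes were higher and 22 lower, with a median log2 change of -0.05 for cytosolic and -0.08 for mitochondrial genes, against -0.01 over all genes. None of the 34 passed in limma (0 at an adjusted p under 0.1, where 0.0812% of all probe sets passed, 0.0769% higher and 0.00427% lower; each had an adjusted p of 0.999). At an unadjusted p under 0.05, 1 gene, Nars2, was lower and 0 were higher, where 2.36% and 2.34% of all probe sets were. The arrays separated upward in 1 gene, Nars, and downward in Nars2 and Rars2, as in 4.97% and 6.34% of all probe sets. In the same arrays 9 of 10 mesenchyme markers were higher (median 0.38; sums of 20230 to 24144 in ATRA and 13812 to 19189 in DMSO arrays) and 10 of 10 endothelial markers were higher (median 0.41; sums of 2021 to 5510 in ATRA and 1292 to 2968 in DMSO arrays). Of the cardiomyocyte markers 9 of 10 were lower (median -0.32; sums of 11655 to 19849 in ATRA and 12021 to 24820 in DMSO arrays). Macrophage markers were lower in 7 of 9 (median -0.19), with sums of 1532 to 3304 in ATRA and 1876 to 4116 in DMSO arrays. None of these lists had a member that passed in the main fit (0 called). With the replicate number as a block, Emcn of the endothelial list passed at a log2 change of 1.39 (limma adjusted p = 0.0601).

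Wars measured 310, 381 and 446 in ATRA arrays, against 227, 319 and 255 in DMSO arrays, and the groups overlapped (log2 change 0.50, SE 0.26, interval -0.08 to 1.09). Gars measured 1327, 1645 and 1646 in ATRA arrays, against 1033, 1671 and 932 in DMSO arrays, also with overlap (log2 change 0.39, SE 0.23, interval -0.14 to 0.91; 0.22 without DMSO replicate 3 and 0.64 without DMSO replicate 2). Both genes were among the highest with LE540 as well, in a comparison that shares the DMSO arrays.

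Nars2, the mitochondrial asparaginyl enzyme, measured 116, 138 and 125 in ATRA arrays, against 228, 177 and 154 in DMSO arrays (log2 change -0.54, SE 0.24). Rars2 measured 294, 469 and 464 in ATRA arrays, against 494, 604 and 628 in DMSO arrays (log2 change -0.52, SE 0.31; -0.29 without ATRA replicate 1). In both genes every ATRA array was below every DMSO array. ATRA replicate 1 was low across the cytosolic genes, at a mean centred level of -0.52 log2, against -0.03 and -0.04 in the other ATRA arrays, and the cytosolic median was 0.11 without it.

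The direct comparison of ATRA with LE540 holds the synthetases that passed a test. All 18 cytosolic genes had a lower mean in ATRA than in LE540 explants (median log2 change -0.58, against -0.03 over all genes), and 3 fell: Cars, Nars and Sars, where 0.192% of all probe sets passed in that direction (0.41% passed as higher, 0.603% in all). At an unadjusted p under 0.05, 12 of the 18 were lower and 0 higher, as were 4.72% and 4.82% of all probe sets. In 12 all ATRA arrays lay below all LE540 arrays and in 0 above them, as in 6.24% and 5.24% of all probe sets. Of the 16 mitochondrial genes, 9 were lower and 7 higher (median -0.08), 0 passed in limma (0 at an unadjusted p under 0.05), and their arrays overlapped in 16 of 16. The part of cell type markers in these results was not tested, and their values were as follows. In ATRA against LE540 arrays, 9 of 10 mesenchyme markers were higher (median 0.61), with summed intensities of 20230 to 24144 in ATRA and 10204 to 17713 in LE540 arrays, and 1, the matrix proteoglycan gene Vcan, rose by 1.29 log2 (limma adjusted p = 0.0608). All 10 endothelial markers were higher (median 0.33), with sums of 2021 to 5510 in ATRA and 1333 to 3038 in LE540 arrays, and 0 passed. Of the cardiomyocyte markers 8 of 10 were lower (median -0.44), with sums of 11655 to 19849 in ATRA and 11209 to 20334 in LE540 arrays, and 0 passed. Macrophage markers were divided, 5 higher and 4 lower (median 0.16), with sums of 1532 to 3304 in ATRA and 2369 to 3424 in LE540 arrays.

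Cars measured 259, 332 and 354 in ATRA arrays, against 583, 540 and 597 in LE540 arrays, and fell by 0.88 log2 (SE 0.15, limma adjusted p = 0.0696). Nars measured 2341, 2567 and 2556 in ATRA arrays, against 3905, 3334 and 4100 in LE540 arrays, and fell by 0.60 log2 (SE 0.11, adjusted p = 0.0764). Sars measured 944, 1503 and 1802 in ATRA arrays, against 3572, 2742 and 3162 in LE540 arrays, and fell by 1.20 log2 (SE 0.22, adjusted p = 0.0847). Of the passing genes Sars alone differed by over 2-fold, its level in ATRA explants being 0.44 times that in LE540 explants. Against DMSO, Cars, Nars and Sars were at 0.03, 0.16 and -0.02 log2 with ATRA, and at 0.91, 0.76 and 1.18 with LE540.

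Yars measured 267, 439 and 380 in ATRA arrays, against 621, 844 and 753 in LE540 arrays, a log2 change of -1.05 (SE 0.20) that missed the threshold in limma (adjusted p = 0.106). Among mitochondrial genes Nars2 differed most, with 116, 138 and 125 in ATRA arrays, against 125, 170 and 245 in LE540 arrays (log2 change -0.46, SE 0.24, limma adjusted p = 0.598; -0.21 without LE540 replicate 3). Yars2 measured 196, 180 and 164 in ATRA arrays, against 241, 206 and 187 in LE540 arrays (log2 change -0.23, SE 0.14, limma adjusted p = 0.669; -0.13 without LE540 replicate 1). Unlike Yars, both of these overlapped between the groups.

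With the replicate number as a block, Yars passed (adjusted p = 0.042) and Nars did not (0.105), while Cars (0.0809) and Sars (0.0966) kept their calls. The calls changed with the arrays fitted. In all, 0 synthetases passed without DMSO replicate 1, DMSO replicate 3 or LE540 replicate 1, and 0 when only the ATRA and LE540 arrays were fitted. Cars alone passed without DMSO replicate 2, Sars alone without ATRA replicate 1 or ATRA replicate 3, Yars alone without ATRA replicate 2 and Mars1 alone without LE540 replicate 3, whereas 4 genes (Cars, Eprs, Nars and Sars) passed without LE540 replicate 2. The log2 changes moved less, from -0.97 to -0.74 for Cars, from -0.69 to -0.52 for Nars and from -1.40 to -0.93 for Sars over the alternatives run.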

How the data were processed

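Total RNA of each pool was amplified with a Nugen whole-transcript kit, per the labels' protocols, and each array gave one value per probe set. The deposited values are RMA intensity values on a linear scale (4.09 to 17798.2), made per the submitters' processing notes with Affymetrix Expression Console 1.1 and RMA, which corrects background, normalizes arrays and summarizes probes; annotation and genome build are not given in the sources used here. Log2 was taken of the deposited intensity values before testing.

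The table held 28270 rows. The 23397 probe sets with a listed gene were fitted in limma 3.58.1 (R 4.3.3) as 3 group means over 9 arrays (6 residual and 2.725 prior degrees of freedom), with two-sided contrasts and Benjamini-Hochberg adjustment over all of them. For several probe sets of a gene, the one with the highest mean stands for it. All 34 genes matched the RefSeq gene table by Entrez identifier. The fit was tested on simulated data. Number of arrays limits precision; signal over background is unknown.

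Means of intensity are over 3 arrays, and "rose" and "fell" mark what passed. Values in every array are given for passing synthetases and for the largest changes, 8 cytosolic and 4 mitochondrial in LE540 vs DMSO and 2 of each in the other comparisons; of each gene list, passing members or the largest changes are named, with Atf4, Asns, Eif2ak4, Aimp2, the markers named and the array values of Rars, Eprs and Hars2 added after their values were seen. The p-values measure the spread between pools. Members, lists and the motif were chosen with earlier results of these data known.

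Deviations of same-numbered arrays from their group means correlated at 0.143, 0.342 and 0.22 (ATRA and DMSO) and 0.261, 0.282 and 0.269 (ATRA and LE540). For LE540 and DMSO they correlated at 0.00946, 0.215 and 0.126. The main fit, which gave the calls above, held no pairing. The replicate number entered only as a block in an alternative fit, in which some calls changed.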

Additional observations from a re-analysis of the deposited data

Results flagged for a closer look

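A probe set listed under both Aars, the alanyl-tRNA synthetase, and Exosc6, an exosome subunit, lies outside the comparisons because its signal cannot be assigned to either gene. It was set aside for a closer look as data left out of those comparisons. It measured 811, 880 and 768 intensity units in LE540 arrays, against 454, 591 and 490 in DMSO arrays, without overlap. The log2 change was 0.69 (SE 0.16, limma adjusted p = 0.369), within the range of the cytosolic synthetases, and its ATRA arrays measured 426, 591 and 591.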

How the results depend on the processing

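The count of synthetases that passed was 0 in ATRA vs DMSO under every one of 21 alternatives. In LE540 vs DMSO it was 0, and 0 to 2 with 1 array left out; the replicate block gave 0 as well, with 12 cytosolic genes higher at the unadjusted level in place of 11 (9 to 12 over the alternatives), although same-numbered LE540 and DMSO arrays did not all deviate together. In ATRA vs LE540 the count of 3 was 0 with only the 2 groups fitted, 1 with array weights, 1 when a change over 2-fold was also asked, 0 at an adjusted p under 0.05, 3 with the replicate block and 0 to 4 with 1 array left out. The cytosolic median log2 change ran from 0.43 to 0.67 in LE540 vs DMSO, from -0.12 to 0.11 in ATRA vs DMSO and from -0.72 to -0.43 in ATRA vs LE540. The mitochondrial median ran from -0.08 to 0.09 in LE540 vs DMSO, from -0.14 to -0.01 in ATRA vs DMSO and from -0.16 to 0.10 in ATRA vs LE540 with 1 array left out, 0.10 being the value without LE540 replicate 2. The synthetases chosen for the largest changes or for passing kept their direction in that comparison under the alternatives run. The cause of the lost calls was not tested. Small changes of the dimmest gene, Pars2, are limited by its signal near the lower quartile.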
